A study of Mus musculus with 15 samples.

Results

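The pluripotency and reprogramming factor genes described here are 9 mouse genes: Pou5f1 (which encodes Oct4), Sox2, Klf4, Myc, Nanog, Esrrb, Sall4, Lin28a and Fgf4. Each was represented by the consensus peaks of chromatin accessibility whose nearest protein-coding gene it was, with the peak centre inside the gene or within 100 kb of it. This rule gave 99 of the 206367 consensus peaks, and it used only positions, not measured values. Myc received 23 peaks, Esrrb 22, Klf4 21, Sox2 11, Nanog 7, Sall4 5, Lin28a 4, Fgf4 4 and Pou5f1 2. Of the 99 peaks 33 lay inside the gene, 23 lay outside it within 10 kb, and 43 lay farther away. A nearest gene need not be the gene that a distal site regulates.

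Oct4, Sox2, Klf4 and Myc are the factors whose forced expression together turns fibroblasts into induced pluripotent stem cells. Oct4, a POU factor that binds octamer sequences, and Sox2, an HMG-box factor, bind DNA together at many enhancers of pluripotent cells, where Nanog, Esrrb and Sall4 act with them, while Lin28a is an RNA-binding protein that blocks maturation of let-7 microRNAs and Fgf4 is a secreted growth factor and a known joint target of Oct4 and Sox2. In fibroblasts Klf4 and Myc are active genes with roles in growth and stress responses, whereas Pou5f1, Nanog and Fgf4 are silent there and active in pluripotent cells. Fra2 is a subunit of AP-1, the dimeric factor that holds many fibroblast enhancers open, and Ezh2 is the methyltransferase of Polycomb repressive complex 2, which places the repressive mark H3K27me3 on silent developmental genes.

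The data are Omni-ATAC-seq, which reads open chromatin by where a transposase can cut and tag DNA, from mouse embryonic fibroblasts (MEFs), cultured connective tissue cells of C57/B16 background as the labels spell it. In 12 libraries the cells carried a CRISPRa-VPR-mCherry construct, a guide-directed transcriptional activator delivered by lentivirus, with guides against Fosl2 (the gene of Fra2) or scrambled guides, and had been sorted as mCherry+/THY1+. Early and late cells were taken 3 and 10 days after infection by most sample labels and 4 and 11 days by the series design, with early control 3 labelled day 4. The other 3 libraries came from MEFs given 4 µM GSK343, an Ezh2 inhibitor, for 3 days with a washout day after. The groups were thus early control, early Fra2, late control, late Fra2 and Ezh2 inhibitor, with 3 libraries each. The labels do not say whether inhibitor cells were transduced or sorted, name no vehicle control for them, and give their titles sheet numbers 27 to 29 against 1 to 12 elsewhere, so treatment and preparation cannot be told apart in that comparison. Whether replicates came from separate cultures is not stated, and p-values therefore reflect only how far these libraries differ, which may be technical. The cells were measured in bulk, so fewer cells with an open site and less opening per cell cannot be told apart.

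Reads in consensus peaks ranged from 6750614 in early control 3 to 25283489 in an inhibitor library. Taken as a floor for reading low values, 3 counts corresponded to 0.117 to 0.42 CPM (the usual depth-scaled read count of a peak, taken over reads in peaks after TMM scaling of the libraries). No count was replaced by this floor. Early control 3 stood apart: its log2 CPM correlated with the other early controls at r = 0.801 and 0.807 over 206088 peaks, against 0.935 between those 2 and at least 0.907 within every other group. Among the 99 peaks it was the highest of all 15 libraries at 18 of the 50 with the lower mean levels and the lowest at 16 of the 49 with the higher ones (28.2% and 28.9% over all peaks split the same way). Of 15 fibroblast markers 14 had a peak at the start, and Lum had none. The brightest start peak per gene had a median of 12.1 CPM, from 3.6 at Pdgfra to 22.4 at Vim. Macrophage markers, 3 of 5 with a start peak, had a median of 9.52 CPM taken the same way. Of the 3 peaks at the start of Fosl2, the targeted gene, 1 was higher in early Fra2 cells (12.7 ± 2.61 against 8.34 ± 1.64 CPM, SD, n = 3, log2 difference 0.56 ± 0.16 SE, adjusted p = 0.0118). The same peak differed by 0.17 at the late time (adjusted p = 0.522), and accessibility does not measure Fra2 protein.

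The start windows differed in how far they lay under a consensus peak, and the 250 bases before the annotated start are given for 5 starts. They are RefSeq sequences of GRCm38.p6 (mm10), written 5′ to 3′ along the gene, and 7 of the 9 genes had an entry, with 10 starts in all. Capitals mark the octamer core TTTGCAT and the GC box GGGCGG, each searched on both strands, so that the reverse complements ATGCAAA and CCGCCC are marked too. The Klf4 sequence is chr4:55532476-55532725 on the minus strand. The others are on the plus strand, at chr3:34649745-34649994 for Sox2, chr12:86421394-86421643 for the second start of Esrrb, chr6:122707239-122707488 for Nanog and chr17:35505782-35506031 for Pou5f1.
Klf4: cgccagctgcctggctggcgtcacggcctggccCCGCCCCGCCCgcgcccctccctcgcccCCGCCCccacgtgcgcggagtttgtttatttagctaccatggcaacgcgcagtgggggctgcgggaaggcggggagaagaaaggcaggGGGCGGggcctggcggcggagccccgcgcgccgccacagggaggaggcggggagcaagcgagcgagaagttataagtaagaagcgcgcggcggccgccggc
Sox2: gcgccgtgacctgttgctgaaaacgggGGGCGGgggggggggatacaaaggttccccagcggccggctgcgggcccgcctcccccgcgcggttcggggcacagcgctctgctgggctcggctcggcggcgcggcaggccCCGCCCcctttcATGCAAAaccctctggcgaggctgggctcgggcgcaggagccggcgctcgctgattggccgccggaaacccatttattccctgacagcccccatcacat
Esrrb: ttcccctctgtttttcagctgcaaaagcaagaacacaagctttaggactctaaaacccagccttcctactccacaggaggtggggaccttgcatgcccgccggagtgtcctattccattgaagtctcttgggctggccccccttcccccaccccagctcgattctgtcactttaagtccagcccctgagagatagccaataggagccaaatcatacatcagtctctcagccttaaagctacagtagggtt
Nanog: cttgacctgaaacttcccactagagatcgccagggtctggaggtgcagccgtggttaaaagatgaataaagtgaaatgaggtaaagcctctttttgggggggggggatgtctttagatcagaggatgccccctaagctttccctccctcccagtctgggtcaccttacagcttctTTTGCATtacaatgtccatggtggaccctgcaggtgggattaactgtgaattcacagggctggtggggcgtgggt
Pou5f1: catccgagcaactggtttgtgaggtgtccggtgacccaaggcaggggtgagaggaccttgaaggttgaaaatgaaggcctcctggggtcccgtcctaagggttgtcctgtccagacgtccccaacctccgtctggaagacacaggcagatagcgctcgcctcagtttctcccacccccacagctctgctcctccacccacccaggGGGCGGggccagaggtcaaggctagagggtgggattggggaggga
The 300-base windows from 250 bases before to 50 after the starts of Klf4, Sox2 and the second start of Esrrb lay whole under a consensus peak. A peak called in the library itself touched the Klf4 and Esrrb windows in 15 of 15 libraries and the Sox2 window in 11 of 15. By contrast 0 bases of the Nanog, Pou5f1 and Lin28a windows lay under a consensus peak, and a library's own peak touched the upstream Pou5f1 window in 1 of 15 libraries and the Nanog and Lin28a windows in 0 of 15. Fgf4 and the first start of Esrrb lay between, with 80 and 39 of the 300 bases under a consensus peak and an own peak in 2 and 9 of 15 libraries. Outside the windows, the Pou5f1 peak 0.7 kb from its second start met a library's own peak in 11 of 15 libraries. The octamer core was found in the Sox2 window and in both overlapping Nanog windows, 3 of 10 windows, and in 4.63% of 32851 mouse promoters of the same length. The AP-1 motif TGANTCA, searched on both strands, was in 0 of the 10 windows and in 7.81% of all promoters. The GC box, looked up after the sequences had been seen, was in 5 of 10 windows and in 35.7% of all promoters, and in Klf4 a pair of its matches overlap by 1 base. These matches describe letters only and say nothing about binding.

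**Figure D1:**
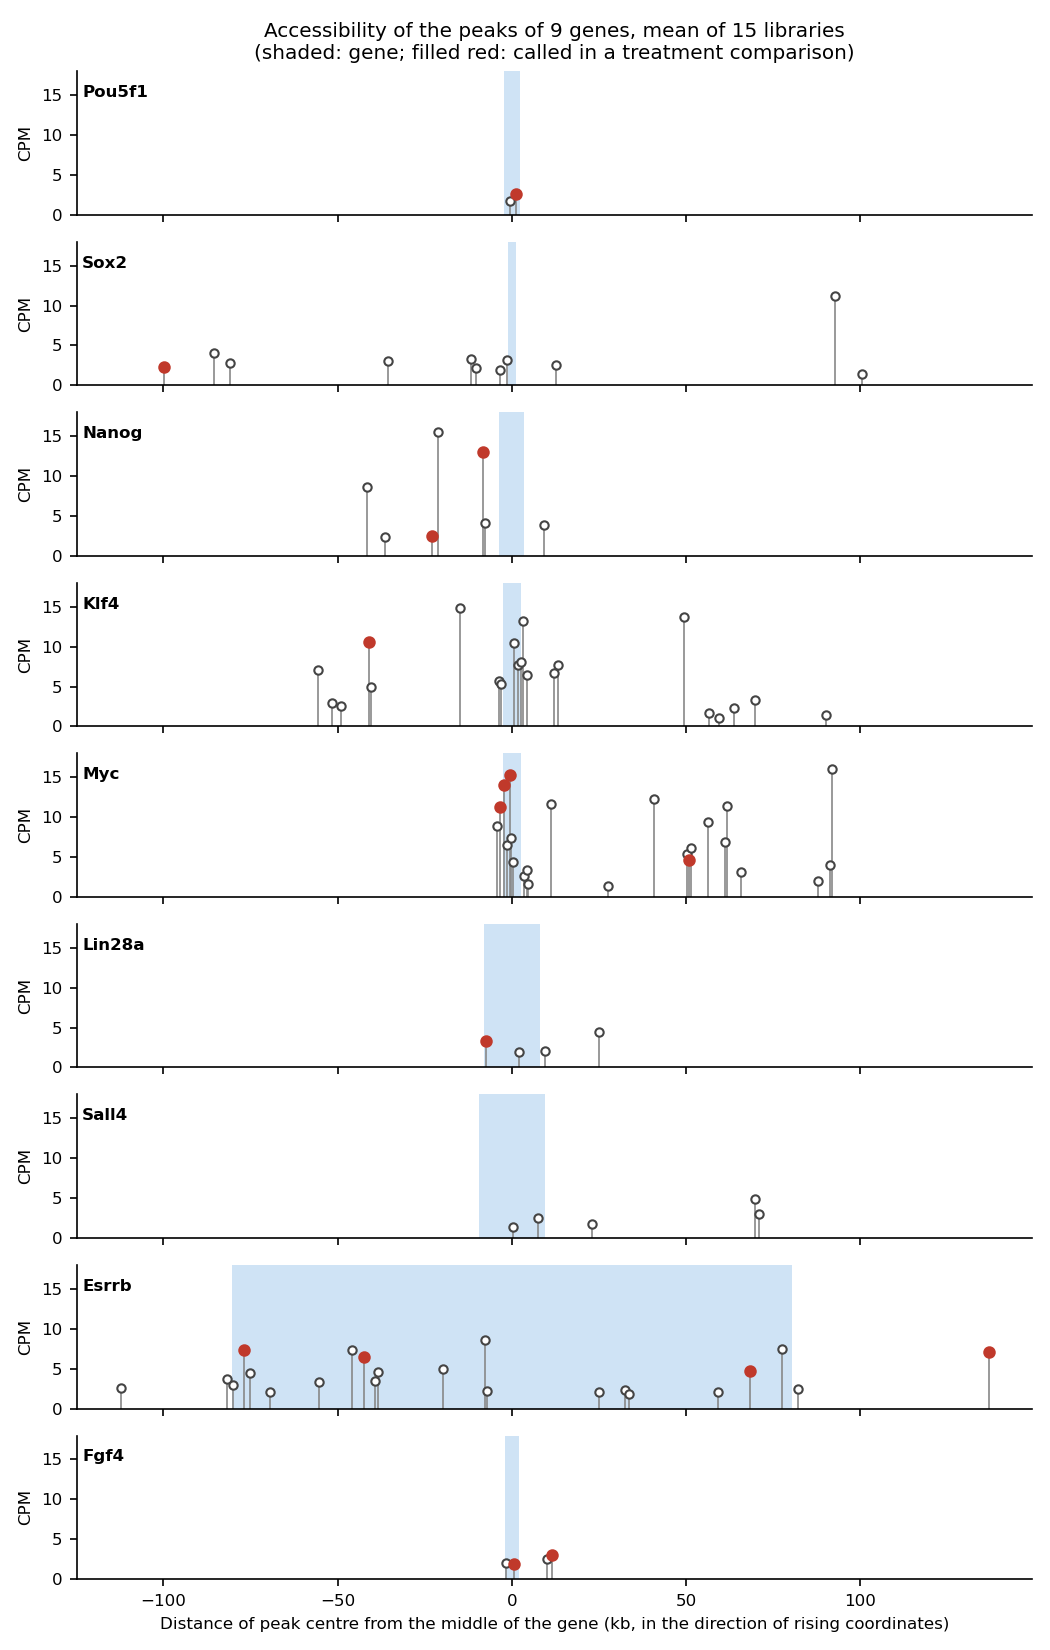
Mean CPM over 15 libraries (vertical axis) of each of the 99 peaks by distance of its centre from the middle of the gene in kb (horizontal axis), with the gene shaded and filled red points marking peaks called in at least 1 of the early Fra2, late Fra2 or Ezh2 inhibitor comparisons. Klf4 and Myc carry clusters of peaks up to 14.8 and 16.1 CPM, and the 2 peaks of Pou5f1 stay at 1.79 and 2.59 CPM.

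Across the 99 peaks the mean level over 15 libraries had a median of 3.85 CPM (1.1 to 16.1), against 3.27 CPM over all peaks, and all 99 passed the filter on low counts. The map of peaks by position shows where the levels lay. Klf4 and Myc, the members active in fibroblasts, had medians over their own peaks of 6.49 and 6.57 CPM, and 12 of 21 and 14 of 23 of their peaks were also called in every one of the 15 per-library peak lists. Nanog was in 5 of 7, Esrrb in 10 of 22, Sox2 in 3 of 11, Lin28a in 1 of 4 and Sall4 in 1 of 5. Neither peak of Pou5f1 and none of the 4 of Fgf4 was in all 15 lists (0 of 2 and 0 of 4). All 7 consensus peaks of Nanog lay outside the gene, and the brightest of them, 17.6 kb from it at chr6:122689672-122690173, held 10.1 to 18.4 CPM and was at or above 96.5% of all peaks.

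Within 1 kb of a start lay 11 of the 99 peaks (11.1%, against 12.4% of all peaks). The median of all peaks at gene starts was 6.6 CPM. The start peaks of Klf4 held 7.72, 8.11 and 13.2 CPM on average and those at the ends of Myc, whose strand the tables used here do not give, 11.3 and 14 CPM. The Sox2 start peak held 3.18 CPM, at or above 15.5% of start peaks. The 2 peaks of Pou5f1 were at or above only 1.34% and 8.22% of start peaks, and the Fgf4 peak held 2.05 CPM. Nanog, Lin28a and Sall4 had 0 consensus peaks within 1 kb of a start or, for Sall4, of either gene end.

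**Figure D2:**
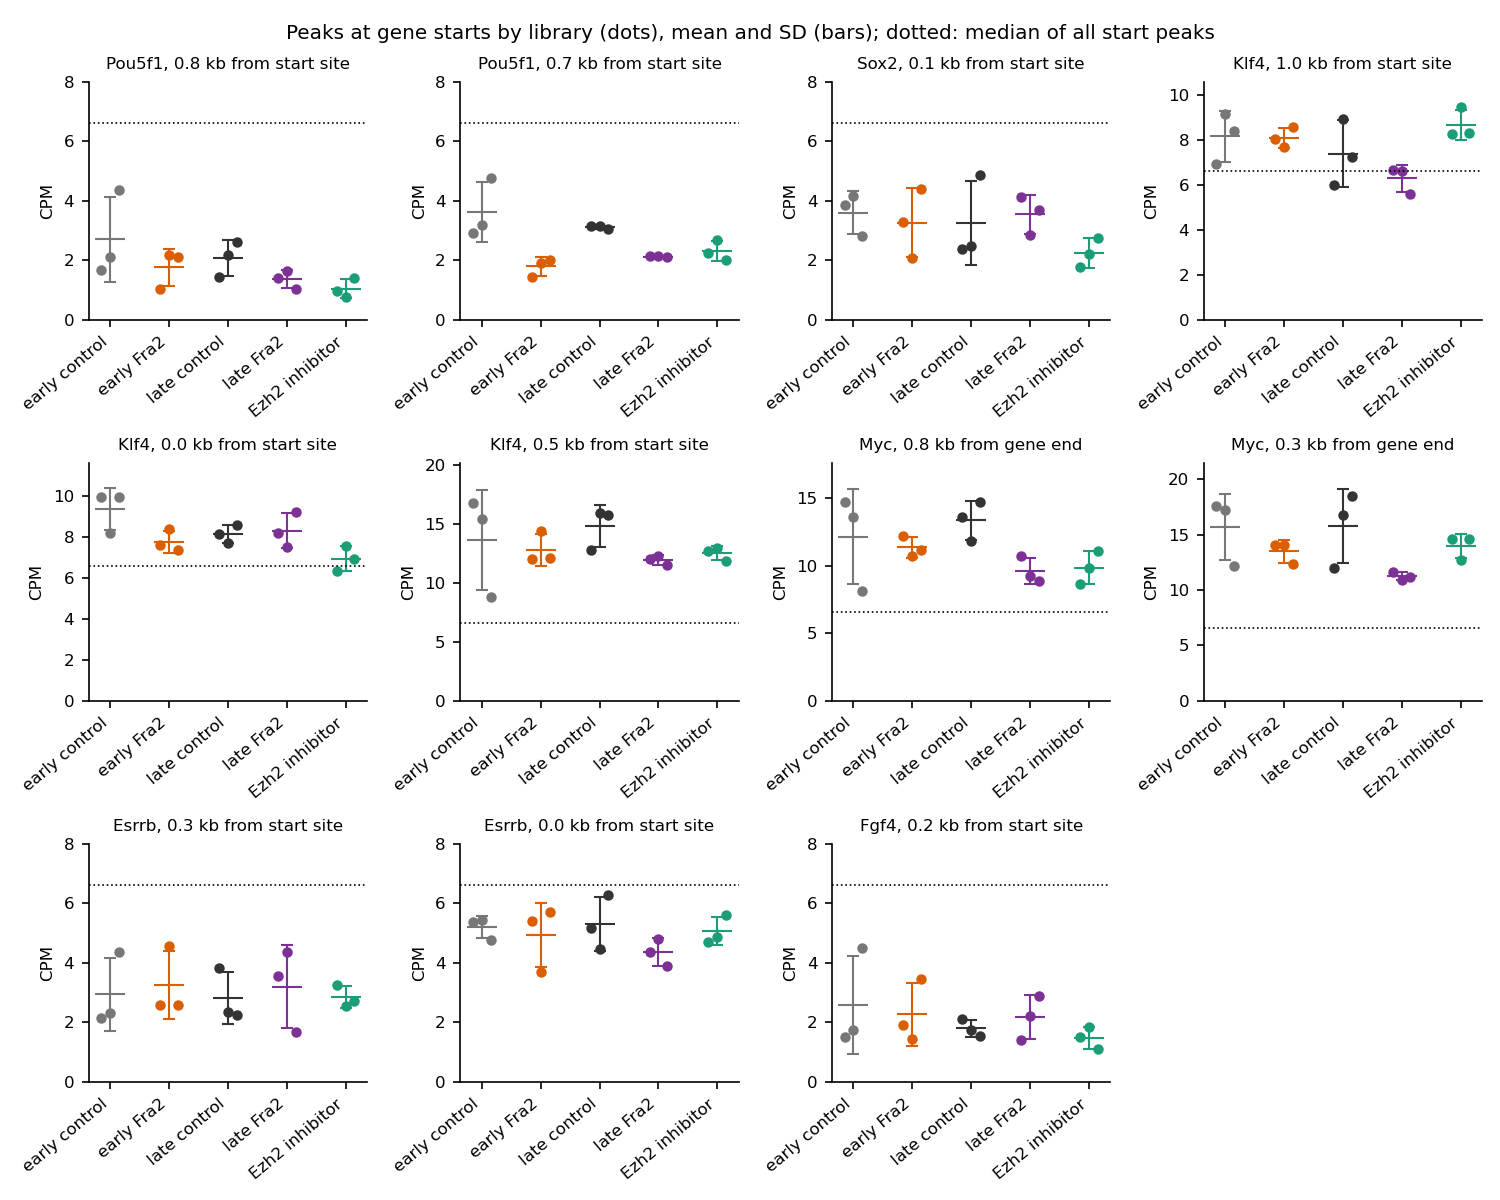
CPM (vertical axis) of the 11 peaks within 1 kb of a gene start in each library (dots) of the 5 groups (horizontal axis), with mean and SD (bars), and the median of all start peaks, 6.6 CPM, dotted. The Klf4 and Myc peaks have group means near or above the dotted line and those of Pou5f1, Sox2, Esrrb and Fgf4 lie below it.

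In early Fra2 cells, 10 of the 99 peaks passed the test against early control (edgeR quasi-likelihood, Benjamini-Hochberg adjusted p under 0.05 over all peaks), 7 higher and 3 lower. That is 10.1%, against a background of 15% of all 206349 tested peaks (10.1% higher and 4.92% lower). In late Fra2 cells, 7 passed against late control, 2 higher and 5 lower, or 7.07% against a background of 9.98% (6.44% higher and 3.54% lower). After the Ezh2 inhibitor 1 peak passed, and it was lower (1.01% against a background of 0.893%). The shares of members called were thus at or below the background in both Fra2 comparisons and close to it for the inhibitor. The median log2 difference of the members was −0.05, −0.09 and −0.1 in these comparisons, against −0.03, −0.01 and 0 over all peaks. The libraries of the compared groups did not overlap at 24, 32 and 20 of the 99 peaks, against 27%, 31.3% and 18% of all peaks. The early Fra2 and inhibitor comparisons share the 3 early controls.

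The direction of the calls depended on the scaling. With scaling factors taken from gene-start peaks the median over all peaks moved to 0.19, 0.24 and 0.16, and the share of higher calls over all peaks went from 67.2%, 64.5% and 61.8% to 93.8%, 95.5% and 94.9%. The members' medians moved to 0.15, 0.15 and 0.06 and so changed sign. Cyclic loess scaling left 59.0%, 62.6% and 53.6% higher. Among the members gene-start scaling gave 13 higher and 0 lower peaks in early Fra2 cells, 12 higher and 2 lower in late Fra2 cells and 4 higher and 1 lower after the inhibitor, while DESeq2 split the early Fra2 calls into 5 higher and 5 lower and cyclic loess into 9 higher and 7 lower. In late Fra2 cells cyclic loess gave 4 higher and 3 lower. The differences of single peaks are given on the default scaling, with the calls that gene-start scaling ended. Without early control 3, the early Fra2 comparison called 16 member peaks (10 higher, 6 lower, including all 10 above) and the inhibitor comparison 6 (2 higher, 4 lower). In the same fits the calls over all peaks rose from 30935 to 40321 in early Fra2 cells and from 1843 to 7565 after the inhibitor. Of these, 60.4% and 38.8% were higher, so that most inhibitor calls were then lower.

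**Figure D3:**
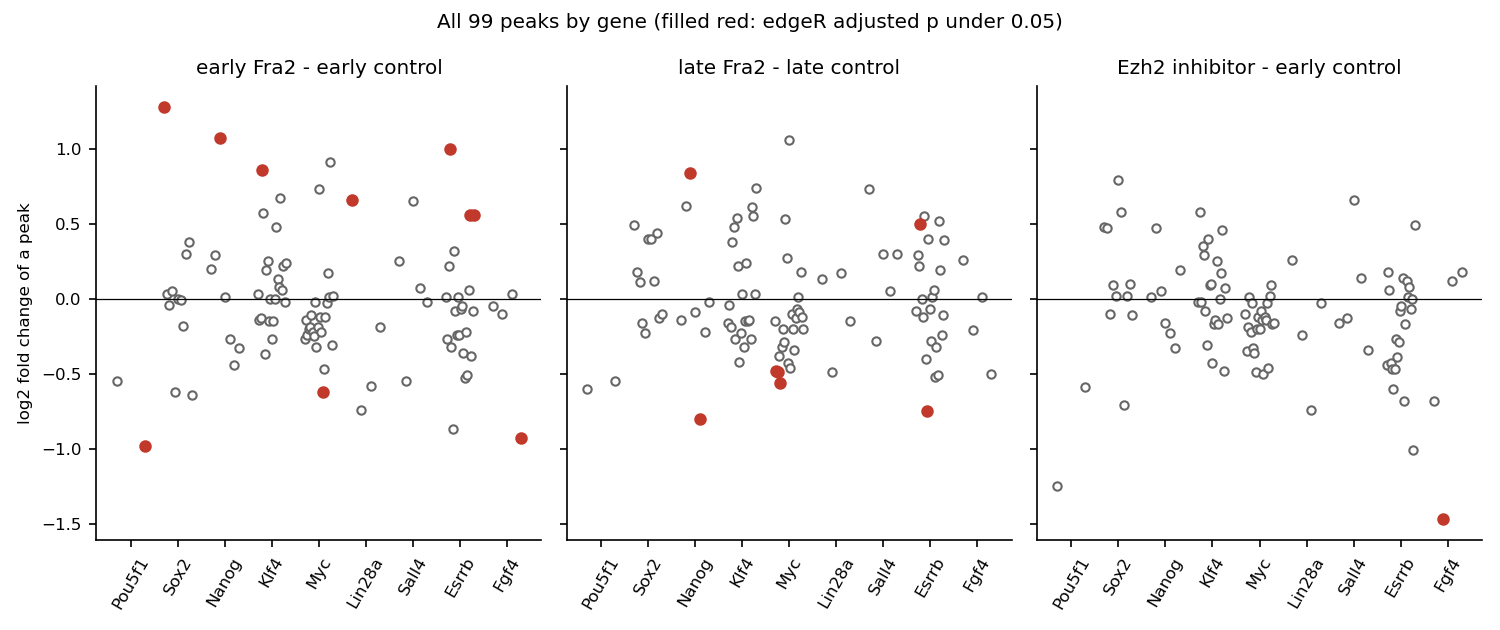
log2 difference (vertical axis) of each of the 99 peaks by gene (horizontal axis) in the early Fra2, late Fra2 and Ezh2 inhibitor comparisons, with filled red points for peaks at an edgeR adjusted p under 0.05. Called peaks number 10, 7 and 1 and lie on both sides of 0 in the Fra2 panels, with at most 3 called peaks of any gene in a panel.

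By position, calls in early Fra2 cells fell on 1 of the 11 start peaks (9.09%, the same share as of all start peaks), 3 of 26 other peaks inside a gene (11.5% against 15.2%), 1 of 19 outside within 10 kb (5.26% against 14.6%) and 5 of 43 beyond (11.6% against 16.5%). All 3 calls inside genes away from starts were higher, as were 4 of the 5 distal ones. In late Fra2 cells 2 of 11 start peaks were called, both lower (18.2% against 10.5% of all start peaks), and the start peaks of members had a median difference of −0.28, beside −0.24 for all start peaks. After the inhibitor the same medians were −0.35 and −0.16.

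Pou5f1, the gene of Oct4, had its 2 peaks inside the gene. The peak at chr17:35509221-35509722, 0.7 kb from the second annotated start, held 2.9, 3.19 and 4.76 CPM in early controls 1 to 3 and 1.42, 1.92 and 2.02 CPM with early Fra2. Late controls held 3.14, 3.14 and 3.05 CPM, late Fra2 libraries 2.14, 2.13 and 2.09 CPM and inhibitor libraries 2.24, 2.68 and 2.02 CPM. All 3 treated groups lay below their controls without overlap. The early Fra2 difference was −0.98 ± 0.27 SE (adjusted p = 0.00971), while the late one was −0.55 ± 0.26 (adjusted p = 0.158) and that of the inhibitor −0.59 ± 0.25 (adjusted p = 0.253). The early call was lost without early Fra2 1 (−0.81, adjusted p = 0.0793) and with gene-start scaling (−0.78, adjusted p = 0.0544). The other peak, at chr17:35507724-35508225, held 1.66, 2.1 and 4.34 CPM in early controls against 0.967, 0.772 and 1.4 CPM in inhibitor libraries. Its groups did not overlap either, and the difference of −1.25 ± 0.38 did not pass (adjusted p = 0.082). It passed without early control 1 (−1.54, adjusted p = 0.03) and with cyclic loess scaling (−1.18, adjusted p = 0.0391). Early control 3 was the highest of the 15 libraries at both Pou5f1 peaks.

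Sox2, which pairs with Oct4 on DNA, had 11 peaks, of which the farthest lay 99.3 kb away. Its start peak (chr3:34649670-34650171) held 3.86, 4.14 and 2.8 CPM in early controls, 3.28, 2.08 and 4.4 CPM in early Fra2 libraries and 1.76, 2.22 and 2.76 CPM in inhibitor libraries. Late controls held 2.39, 2.47 and 4.87 CPM and late Fra2 libraries 4.11, 2.83 and 3.68 CPM. Fra2 and control libraries overlapped at both times, with differences of −0.18 ± 0.26 and 0.12 ± 0.25. Inhibitor libraries lay below the early controls without overlap, at −0.71 ± 0.26 (adjusted p = 0.157), which passed only without early control 3 (−0.82, adjusted p = 0.0461). The 1 called Sox2 peak in the Fra2 and inhibitor comparisons was distal, 98.7 kb away on the side of the promoter at chr3:34551020-34551521. It held 1.02, 1.02 and 1.82 CPM in early controls, 2.23, 3.2 and 3.46 CPM in early Fra2 libraries and 1.8, 1.27 and 1.9 CPM in inhibitor libraries. Early Fra2 cells were thus higher by 1.28 ± 0.38 (adjusted p = 0.0136), and the call was lost without early control 1 (1.14), early control 2 (1.17) or early Fra2 3 (1.15). Late controls scattered from 0.792 to 4.78 CPM there, and the late difference was 0.49 ± 0.32. The brightest Sox2 peak, 91.3 kb past the gene at chr3:34743532-34744033, held 9.77, 10.5 and 4.76 CPM in early controls and 12.2, 14.6 and 15.7 CPM in late controls. It was higher in late than in early control cells by 0.7 ± 0.18 (adjusted p = 0.0149), 1 of only 2 members called for time. That call was lost without late control 2 (0.68, adjusted p = 0.0715) or late control 3 (0.62, adjusted p = 0.0863).

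Klf4, a zinc finger factor that fibroblasts themselves use, had the most open start of the members with an annotated strand. The peak over its start (chr4:55532253-55532754) held 9.98, 8.2 and 9.94 CPM in early controls, 7.6, 8.39 and 7.35 CPM in early Fra2 libraries and 6.33, 7.58 and 6.95 CPM in inhibitor libraries. Late controls held 8.14, 7.72 and 8.59 CPM and late Fra2 libraries 8.22, 7.52 and 9.21 CPM. The promoter differed by −0.27 ± 0.16 and 0.03 ± 0.15 in early and late Fra2 cells and by −0.43 ± 0.15 after the inhibitor (adjusted p = 0.162), where the groups did not overlap. The adjoining upstream peak held 13.2 CPM on average and the downstream one 7.72 CPM, and neither was called in any of these comparisons. The brightest Klf4 peak, 12.3 kb past the gene's 3′ side, held 18.6, 18.1 and 15.1 CPM in early controls and 14.2, 12.2 and 13.8 CPM in early Fra2 libraries. Its difference of −0.37 ± 0.15 (adjusted p = 0.0874) passed in DESeq2, with cyclic loess scaling and without early control 3 (−0.45, adjusted p = 0.0153). The called Klf4 peak lay 38.3 kb from the gene at chr4:55488580-55489081, with Rad23b, the next gene, 96.6 kb away. It held 7.41, 7.47 and 5.88 CPM in early controls and 13.4, 12.4 and 12.4 CPM in early Fra2 libraries. Late controls held 10.2, 10.6 and 11 CPM, late Fra2 libraries 14, 14.8 and 12.5 CPM and inhibitor libraries 8.62, 10.1 and 8.31 CPM. In all 3 treatments every library exceeded every control. Early Fra2 cells were higher by 0.86 ± 0.16 (adjusted p = 9.56e-05), a call kept in all 12 alternative fits (0.78 to 1.08). The late difference was 0.38 ± 0.15 (adjusted p = 0.0828) and that of the inhibitor 0.35 ± 0.16 (adjusted p = 0.289). The site was also higher in late than in early controls, by 0.58 ± 0.16 (adjusted p = 0.0311), a call lost without early control 2 (0.63), late control 2 (0.58) or late control 3 (0.56).

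**Figure D4:**
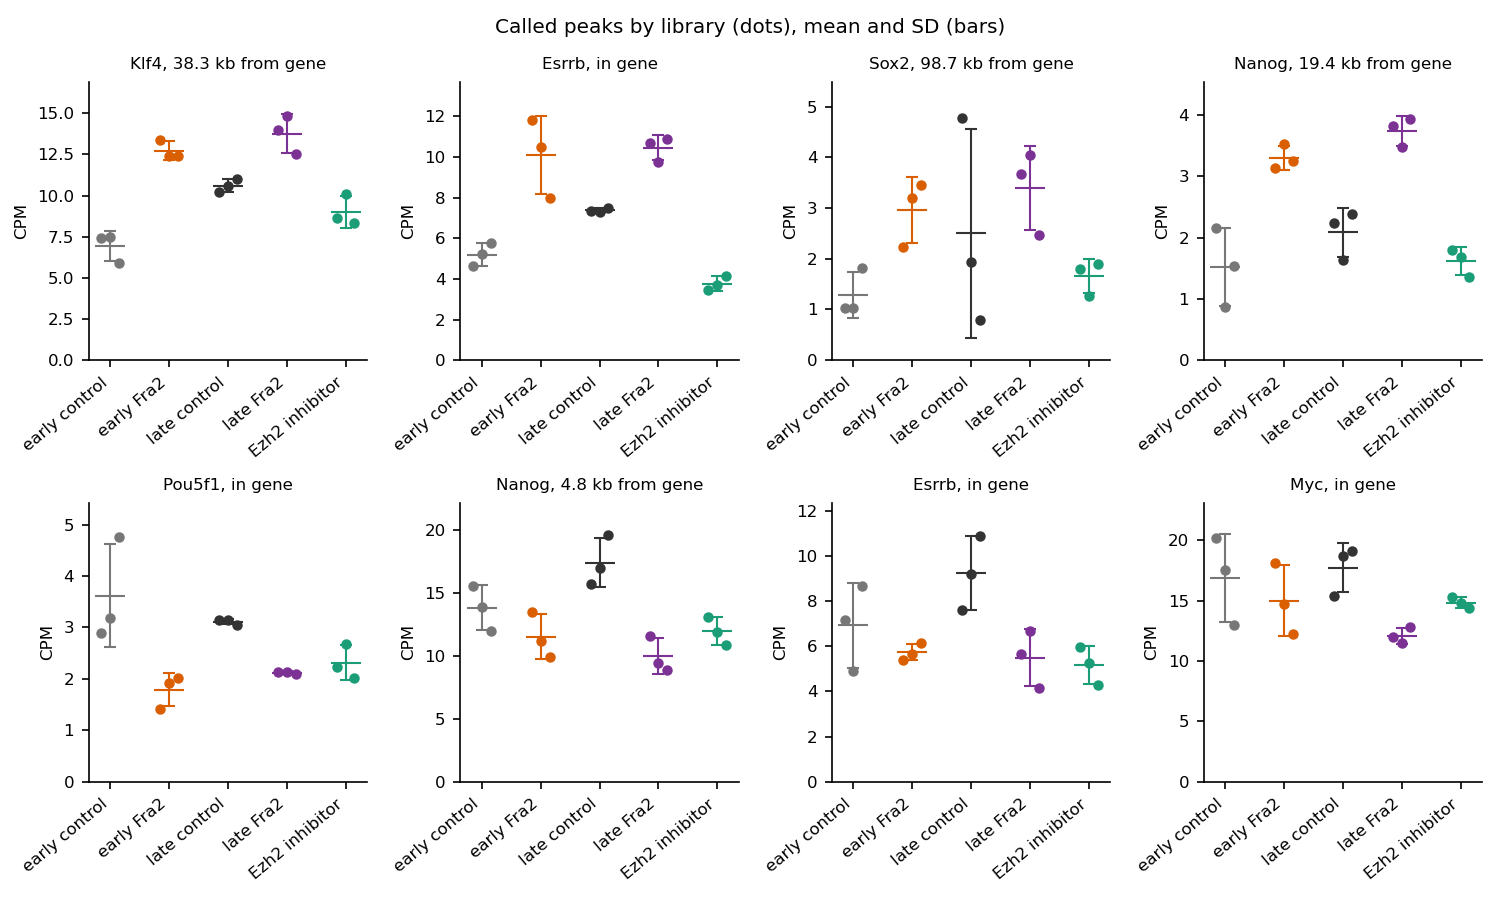
CPM (vertical axis) in each library (dots) of the 5 groups (horizontal axis), with mean and SD (bars), at 8 of the called peaks. Both Fra2 groups lie above their controls at the Klf4 peak 38.3 kb from the gene, the Nanog peak 19.4 kb from it and the first Esrrb peak, and below them at Pou5f1 and at the Nanog peak 4.8 kb from the gene in late cells.

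Myc, a bHLH factor that drives growth and biosynthesis, had 23 peaks, with 11 in or within 10 kb of the gene. In late Fra2 cells 3 of them were lower than in late control, all at the gene. At chr15:61986919-61987420 inside Myc, late controls held 15.4, 18.7 and 19.1 CPM and late Fra2 libraries 12, 11.5 and 12.8 CPM, without overlap. The difference was −0.56 ± 0.16 (adjusted p = 0.0174). The 2 peaks at the lower end of the gene had similar differences, at −0.49 ± 0.16 for chr15:61985355-61985856 (adjusted p = 0.0361) and −0.48 ± 0.16 for chr15:61984254-61984755 (adjusted p = 0.047). Late controls held 12, 16.8 and 18.5 CPM at the former and 13.6, 11.8 and 14.7 CPM at the latter, against 11.6, 10.9 and 11.2 CPM and 10.7, 9.23 and 8.84 CPM in late Fra2 libraries. In early Fra2 cells the 3 differed by −0.19, −0.24 and −0.14 and overlapped the controls. After the inhibitor the 2 at the lower end differed by −0.19 and −0.35. The last passed there only without early control 3 (−0.52, adjusted p = 0.0222). All 3 late Fra2 calls ended with gene-start scaling (−0.31, −0.24 and −0.22), the latter 2 also with cyclic loess scaling (−0.29 and −0.33) and the last in DESeq2 (−0.48, adjusted p = 0.0516). They also ended without late Fra2 1 (−0.55, −0.51 and −0.56), late Fra2 2 (−0.52, −0.47 and −0.45), late control 2 (−0.52, −0.44 and −0.56) or late control 3 (−0.5, −0.36 and −0.4), the latter 2 peaks also without late Fra2 3 (−0.49 and −0.42) and the last without late control 1 (−0.46).

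The called Myc peak of early Fra2 cells lay 48.2 kb past the gene at chr15:62038301-62038802, with 6.55, 5.3 and 5.32 CPM in early controls and 3.51, 3.04 and 4.76 CPM in early Fra2 libraries. It was lower by 0.62 on the log2 scale (−0.62 ± 0.2, adjusted p = 0.0245), without overlap, and gene-start scaling ended the call (−0.4). So did leaving out early control 1 (−0.49), early Fra2 1 (−0.56) or early Fra2 2 (−0.53). The brightest of the 99 peaks belonged to Myc as well, 89.3 kb away at chr15:62079364-62079865. It held 16.8, 16.5 and 16.2 CPM in early controls, 15.8, 16.5 and 17.9 CPM in early Fra2 libraries and 16.6, 13.5 and 14.3 CPM in inhibitor libraries, so the groups overlapped. Late controls held 15.8, 19 and 16.9 CPM and late Fra2 libraries 15, 13.7 and 16.5 CPM, which overlapped too.

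Nanog, the homeodomain factor of the pluripotent state, had no consensus peak inside the gene, where 2 libraries, late control 2 and inhibitor 3, had a peak in their own lists. At chr6:122687844-122688345, 19.4 kb before the gene, early controls held 2.15, 0.871 and 1.54 CPM and early Fra2 libraries 3.13, 3.52 and 3.24 CPM. Late controls held 2.24, 1.63 and 2.38 CPM, late Fra2 libraries 3.81, 3.47 and 3.93 CPM and inhibitor libraries 1.8, 1.68 and 1.36 CPM. Fra2 libraries exceeded their controls without overlap at both times, by 1.07 ± 0.29 (adjusted p = 0.0075) and 0.84 ± 0.26 (adjusted p = 0.0295), and the inhibitor difference was 0.05 ± 0.3. The early call was lost without early control 2 (0.77, adjusted p = 0.0981), and the late one without late control 2 (0.69), late control 3 (0.96), late Fra2 1 (0.83), late Fra2 2 (0.9) or late Fra2 3 (0.81). The next gene, Slc2a3, lay 39.7 kb from this peak. The brightest Nanog peak, 17.6 kb from the gene, held 17.5, 18.4 and 10.1 CPM in early controls and 17.7, 16.7 and 13 CPM in early Fra2 libraries, a difference of 0.01 ± 0.16. At chr6:122702442-122702943, 4.8 kb before the gene, the order was the opposite. Late controls held 15.7, 17 and 19.6 CPM there and late Fra2 libraries 11.6, 9.44 and 8.9 CPM, lower by 0.8 on the log2 scale (−0.8 ± 0.16, adjusted p = 0.000428) in all 12 alternative fits (−0.93 to −0.55). Early controls held 15.6, 13.9 and 12 CPM, early Fra2 libraries 13.5, 11.2 and 9.94 CPM and inhibitor libraries 13.1, 11.9 and 10.9 CPM, which overlapped. The early difference was −0.27 ± 0.16 (adjusted p = 0.253).

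Esrrb, an orphan nuclear receptor that sustains self-renewal, spans 160512 bases, and 18 of its 22 peaks lay inside it. The peak at its second start (chr12:86421353-86421854) held 5.37, 5.44 and 4.76 CPM in early controls, 5.41, 3.68 and 5.69 CPM in early Fra2 libraries and 4.7, 4.86 and 5.59 CPM in inhibitor libraries. Late controls held 5.15, 4.46 and 6.28 CPM and late Fra2 libraries 4.37, 4.8 and 3.87 CPM, and the groups overlapped in each comparison. The first start had a weaker peak of 3 CPM on average. The brightest Esrrb peak, 11.9 kb from the second start, held 8.55 CPM on average and differed by −0.05 ± 0.17, 0.01 ± 0.16 and 0.14 ± 0.16 in early Fra2, late Fra2 and inhibitor cells. Within the gene, 3.2 kb from the first start at chr12:86364100-86364601, early controls held 4.61, 5.22 and 5.74 CPM and early Fra2 libraries 11.8, 10.5 and 8 CPM. Late controls held 7.32, 7.3 and 7.49 CPM, late Fra2 libraries 10.7, 9.76 and 10.9 CPM and inhibitor libraries 3.47, 3.68 and 4.16 CPM. Fra2 libraries were above their controls and inhibitor libraries below theirs, each without overlap. The early Fra2 difference was 1 ± 0.17 (adjusted p = 2.06e-05), kept in all 12 alternative fits (0.85 to 1.22). The late difference was 0.5 ± 0.15 (adjusted p = 0.0284), which was lost when any 1 of the 6 late libraries was left out (0.47 to 0.54, adjusted p 0.0526 to 0.0926). The inhibitor difference was −0.43 ± 0.18 (adjusted p = 0.242).

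Another Esrrb peak inside the gene, at chr12:86398609-86399110, was lower in late Fra2 cells. Late controls held 7.62, 9.23 and 10.9 CPM and late Fra2 libraries 5.65, 6.67 and 4.17 CPM, a difference of −0.75 ± 0.17 (adjusted p = 0.00334). Leaving out late control 3 ended that call (−0.61, adjusted p = 0.0578), and the early difference was −0.24 ± 0.19. The other called peaks of early Fra2 cells lay near the far end of the gene (chr12:86509502-86510003) and 56.5 kb past it (chr12:86577888-86578389). The former held 4.83, 3.63 and 4.34 CPM in early controls and 6.69, 6.08 and 6.13 CPM in early Fra2 libraries, and the latter 4.72, 4.35 and 6.3 CPM and 7.22, 7.51 and 7.21 CPM. Both were higher by 0.56 (SE 0.19 and 0.18, adjusted p = 0.0337 and 0.0275) without overlap. Leaving out early Fra2 1 (0.51 and 0.57), early Fra2 2 (0.57 and 0.53) or early control 2 (0.44 and 0.46) ended both calls. Leaving out early Fra2 3 ended the former (0.58) and early control 1 the latter (0.51). The former call also ended in DESeq2 (0.55, adjusted p = 0.0585). A peak 24.8 kb from the nearer start, added after its values were seen, was called higher in early Fra2 cells only without early control 3 (0.79 against 0.32), where that library held 5.6 CPM and the other early controls 1.93 and 2.32 CPM.

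Sall4, a zinc finger factor of stem and germ cells, had 5 peaks, 2 of them inside the gene, and 0 passed in any of the comparisons in edgeR, with 0 at an unadjusted p under 0.05 in each of them. Its brightest peak, 60.3 kb away at chr2:168827223-168827724, held 4.56, 4.64 and 4.2 CPM in early controls, 4.75, 4.72 and 4.68 CPM in early Fra2 libraries and 4.09, 5.17 and 5.59 CPM in inhibitor libraries. Late controls held 4.18, 5.13 and 5.97 CPM and late Fra2 libraries 4.88, 5.65 and 5.4 CPM. The early groups did not overlap but were separated by 0.07 ± 0.19 only.

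Lin28a had 4 peaks, and 1 of them was called in early Fra2 cells. It lay inside the gene at the end far from the start, 15.1 kb from it at chr4:134003474-134003975 and 2.8 kb from the neighbouring gene Dhdds. Early controls held 2.52, 2.83 and 2.66 CPM and early Fra2 libraries 5.13, 3.36 and 3.89 CPM, a difference of 0.66 ± 0.23 (adjusted p = 0.0448). The call was lost in 6 of 12 alternative fits, among them those without early control 1 (0.6), early control 2 (0.71), early Fra2 1 (0.45) or early Fra2 3 (0.7) and DESeq2 (0.64, adjusted p = 0.074). Late controls held 3.44, 2.71 and 3.23 CPM and late Fra2 libraries 3.55, 3.95 and 2.64 CPM, which overlapped. The brightest Lin28a peak, 16.9 kb away, held 4.47 CPM on average and differed by −0.19 ± 0.2 and −0.15 ± 0.2 in early and late Fra2 cells.

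Fgf4, the growth factor among the members, had 4 faint peaks between 1.86 and 3.02 CPM. Its start peak (chr7:144861356-144861857) held 1.5, 1.74 and 4.48 CPM in early controls, 1.9, 1.44 and 3.46 CPM in early Fra2 libraries and 1.49, 1.82 and 1.09 CPM in inhibitor libraries, with overlap. At chr7:144863657-144864158 inside the gene, early controls held 2.58, 2.1 and 3.5 CPM and inhibitor libraries 0.879, 0.726 and 1.24 CPM. This was the only member peak called after the inhibitor, at −1.47 ± 0.36 (adjusted p = 0.0318), and DESeq2 gave it no adjusted p. Leaving out early control 2 (−1.62), inhibitor 1 (−1.41), inhibitor 2 (−1.31) or inhibitor 3 (−1.72) ended the call. Early Fra2 libraries held 1.95, 2.08 and 3.46 CPM at this peak, a difference of −0.1 ± 0.34. At chr7:144874587-144875088, 9.6 kb past the gene, early controls held 3.11, 3.34 and 3.64 CPM and early Fra2 libraries 1.23, 1.04 and 3.03 CPM. The early Fra2 difference was −0.93 ± 0.28 (adjusted p = 0.0168), which ended with gene-start scaling (−0.71) and without early Fra2 1 (−0.68) or early Fra2 2 (−0.73). Late controls held 4.03, 3.98 and 2.92 CPM and late Fra2 libraries 2.23, 3.15 and 2.33 CPM there, with overlap.

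Whether the Fra2 effect changed with time was tested as an interaction. In edgeR 0 of the 99 peaks passed, against a background of 0.0935% of all peaks, and DESeq2 also gave 0. DESeq2 can leave faint peaks without an adjusted p, and how many of the 99 it left so was not counted here. At an unadjusted p under 0.05 there were 4, while 9.57% of all peaks reached that level: the Nanog peak 4.8 kb from the gene (−0.53 ± 0.22, late effect minus early), the Sox2 peak 91.3 kb away (−0.52 ± 0.24), the Esrrb peak 3.2 kb from the start (−0.5 ± 0.23) and the Klf4 peak 38.3 kb away (−0.47 ± 0.22). At the last 2 of these the Fra2 libraries of both times held similar CPM while late controls lay above early controls. Between late and early control cells 2 of the 99 peaks passed, both higher (2.02% against a background of 3.28%), and they are the Sox2 peak 91.3 kb away and the Klf4 peak 38.3 kb away. Over all peaks 62.3% of the calls for time were higher in late control cells, and 81.0% with gene-start scaling. The comparison over time and the early Fra2 comparison share the early controls.

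Early Fra2 and Ezh2 inhibitor cells were also compared with each other, and 13 of the 99 peaks passed, 9 higher and 4 lower with Fra2 (13.1% against a background of 14.2%, with 9.02% higher and 5.2% lower, so that 63.4% of all calls were higher, or 76.3% with gene-start scaling, where the members split into 9 higher and 1 lower). The Esrrb peak 3.2 kb from the start differed most, at 10.1 ± 1.92 against 3.77 ± 0.351 CPM (SD, n = 3), or 1.43 ± 0.16 (adjusted p = 2.53e-09). The Fgf4 peak inside the gene followed with 1.36 ± 0.35 (adjusted p = 0.0053), lost without early Fra2 3 (1.06, adjusted p = 0.0676). The Nanog peak 19.4 kb away differed by 1.03 ± 0.27 (adjusted p = 0.00509) and a Myc peak 59.3 kb away by 0.63 ± 0.15 (adjusted p = 0.0028). At that Myc site (chr15:62049399-62049900) early Fra2 libraries held 13.2, 12.5 and 12 CPM and inhibitor libraries 7.61, 8.17 and 8.55 CPM. The Esrrb, Nanog and Myc calls were kept in all 12 alternative fits. Lower with Fra2 was the Fgf4 peak 9.6 kb past the gene, added after its values were seen (1.77 ± 1.1 against 3.76 ± 0.466 CPM, −1.12 ± 0.26, adjusted p = 0.00178). So were a Sox2 peak 9.1 kb away (1.91 ± 0.609 against 3.39 ± 0.514 CPM, −0.79 ± 0.27, adjusted p = 0.0366) and a Klf4 peak 49 kb away (2.73 ± 0.765 against 4.45 ± 0.119 CPM, −0.72 ± 0.23, adjusted p = 0.0255). Both of these were lost without inhibitor 1 (−0.66 and −0.71), inhibitor 2 (−0.81 and −0.74), inhibitor 3 (−0.88 and −0.71) or early Fra2 2 (−0.61 and −0.66), the former also without early Fra2 3 (−0.73) and the latter without early Fra2 1 (−0.56), and both with gene-start scaling (−0.73 and −0.66).

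Summed over all peaks of a gene, accessibility differed little. The sums were tested for 18298 genes in edgeR, and in each of the early Fra2, late Fra2 and inhibitor comparisons 1 of the 9 passed, against backgrounds of 26.5%, 23.9% and 5.03% of genes. The Pou5f1 sum was 4.78, 5.66 and 10.4 CPM in early controls, 2.69, 4.49 and 4.66 CPM in early Fra2 libraries and 3.53, 3.8 and 3.76 CPM in inhibitor libraries. It was lower by 0.75 on the log2 scale (−0.75 ± 0.25, adjusted p = 0.0288) in early Fra2 cells and by 0.8 (−0.8 ± 0.24, adjusted p = 0.0488) after the inhibitor. Without early control 3 neither passed (−0.44, adjusted p = 0.135, and −0.49, adjusted p = 0.126). The early Fra2 call also ended without early Fra2 1 (−0.49), and the inhibitor call without early control 2 (−0.9), inhibitor 1 (−0.77), inhibitor 2 (−0.82) or inhibitor 3 (−0.82). The Myc sum was 196, 201 and 204 CPM in late controls and 177, 177 and 178 CPM in late Fra2 libraries, which did not overlap, and differed by −0.18 ± 0.06 (adjusted p = 0.0233). That call ended without late Fra2 1 (−0.18, adjusted p = 0.0679), late Fra2 2 (adjusted p = 0.0726), late Fra2 3 (adjusted p = 0.0555), late control 2 (adjusted p = 0.0709) or late control 3 (adjusted p = 0.0897). Without early control 3 the Myc sum was lower in early Fra2 cells (−0.17, adjusted p = 0.00221) and after the inhibitor (−0.23, adjusted p = 0.000366), and the Esrrb sum was higher in early Fra2 cells (0.2, adjusted p = 0.00529). The Fgf4 sum was lower in early Fra2 cells only without early Fra2 3 (−0.61, adjusted p = 0.0297). For the interaction, for time and between early Fra2 and inhibitor cells 0 of 9 sums passed in edgeR. The edgeR backgrounds were 0.071%, 4.63% and 15.2% of genes. DESeq2 also called 0, but for the interaction it gave the Pou5f1, Lin28a, Sall4 and Fgf4 sums no adjusted p. At an unadjusted p under 0.05 in edgeR there were also 0 of 9, against 10.4%, 20.2% and 29.9% of genes.

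The order of the 5 groups differed from gene to gene. For Pou5f1 the mean sum ran from early control (6.94 ± 3.02 CPM, SD, n = 3 throughout) through late control (5.51 ± 0.473), early Fra2 (3.95 ± 1.09) and late Fra2 (3.92 ± 0.388) to inhibitor (3.7 ± 0.149), and of these neighbours only late control and early Fra2 did not overlap. For Klf4, early Fra2 was highest (160 ± 1.96) and did not overlap the inhibitor group (152 ± 2.27), while late Fra2 (151 ± 5.71), early control (146 ± 16.3) and late control (146 ± 4.77) overlapped their neighbours. For Esrrb, the inhibitor group was lowest (94.4 ± 1.79) and did not overlap late control (103 ± 7.07), with early Fra2 (105 ± 4.06), early control (106 ± 25.5) and late Fra2 (108 ± 4.88) overlapping above. For Myc the order ran from late control (201 ± 4.07) through early control (192 ± 24), early Fra2 (183 ± 8.52) and late Fra2 (177 ± 0.422) to inhibitor (176 ± 1.73), each overlapping the next. For Sox2 it ran from late Fra2 (44.7 ± 1.66) through inhibitor (42.7 ± 0.951), early Fra2 (42.2 ± 2.83) and late control (40.8 ± 1.38) to early control (38.6 ± 0.962), again with each overlapping the next. Nanog means lay between 52.6 and 57.7 CPM, Sall4 between 13.5 and 16, Lin28a between 12 and 13.9 and Fgf4 between 9.58 and 12.1, with neighbours overlapping in each. The place of the early control mean depended on early control 3. That library held 10.4, 127, 135 and 165 CPM for Pou5f1, Klf4, Esrrb and Myc. Early controls 1 and 2 held 4.78 and 5.66, 155 and 157, 90.8 and 91.8, and 208 and 204 CPM. For Esrrb these 2 lay below every inhibitor library (96, 92.5 and 94.7 CPM). Sums of different genes cover different numbers of peaks and are not compared.

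**Figure D5:**
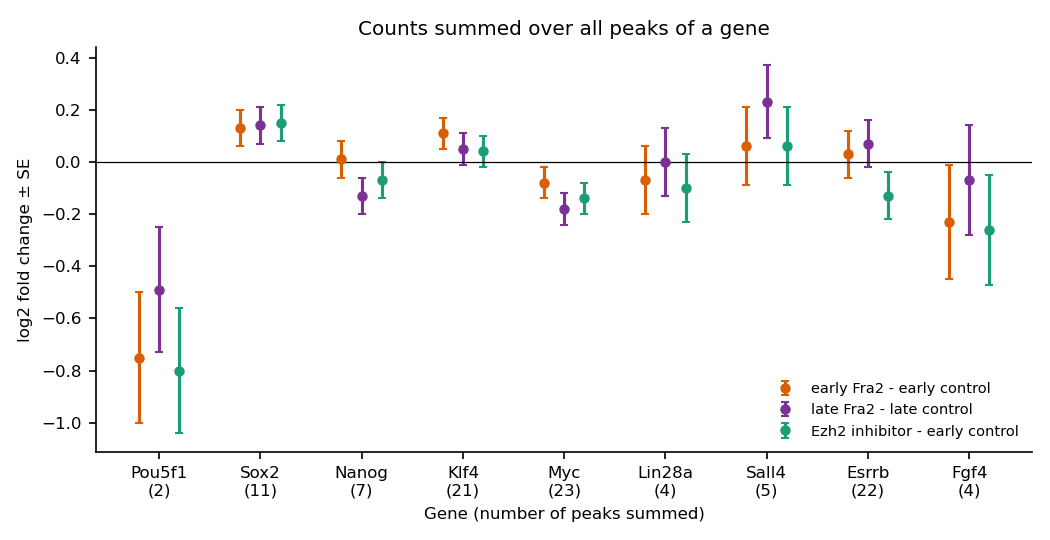
log2 difference with SE (vertical axis) of counts summed over all peaks of each gene (horizontal axis, number of peaks in brackets) in the early Fra2, late Fra2 and Ezh2 inhibitor comparisons. Pou5f1 lies lowest, at −0.75, −0.49 and −0.8, and the sums of the other genes lie between −0.26 and 0.23.

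A wider list of 37 genes of the pluripotency network and its signalling, of which 35 had 334 peaks, was read the same way. In early Fra2 cells 41 of these peaks passed, 31 higher and 10 lower (12.3% against a background of 15%). In late Fra2 cells 42 passed, 24 higher and 18 lower (12.6% against 9.98%), and after the inhibitor 3 passed, all higher (0.898% against 0.893%). The median differences over the list were −0.06, −0.04 and −0.02. The largest rise in early Fra2 cells was 30.2 kb from Zfp42, the gene of Rex1 (3.38 ± 0.772 against 1.03 ± 0.306 CPM, 1.7 ± 0.38, adjusted p = 0.00104). The largest falls in early Fra2 cells were 95.3 kb from Lifr, the receptor of the self-renewal cytokine LIF (0.871 ± 0.27 against 2.88 ± 1.27 CPM, −1.61 ± 0.41, adjusted p = 0.00407), and inside Tbx3 (1.09 ± 0.411 against 2.35 ± 0.886 CPM, −1.09 ± 0.37, adjusted p = 0.0358). In late Fra2 cells a peak inside Nr5a2 was higher (1.3 ± 0.36, adjusted p = 0.0127), and the largest falls were inside Prdm14 (−1.23 ± 0.35, adjusted p = 0.0156) and 7.1 kb from Utf1 (−1.13 ± 0.36, adjusted p = 0.0317). After the inhibitor a peak inside Tet2, a DNA demethylase, was higher (3.25 ± 0.304 against 1.66 ± 0.495 CPM, 0.98 ± 0.26, adjusted p = 0.0462). Between early Fra2 and inhibitor cells 37 peaks of the list passed (11.1%), and the largest difference was inside Stat3, the effector of LIF signalling, with 5.61 ± 0.469 CPM with Fra2 against 1.44 ± 0.137 CPM with the inhibitor (1.95 ± 0.23, adjusted p = 4.15e-09).

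Germ cells and other cells that use some of these genes were looked for by their markers. A start peak was present at 3 of 8 germ cell markers, the brightest holding 11.1 CPM at Dazl, 7.22 at Prdm1 and 3.15 at Kit. Ddx4, Nanos3, Dppa3, Sycp3 and Mael had none. The median of all start peaks was 6.6 CPM. The summed start-peak level of that list ranged over 22.7 to 26.7 CPM in early controls, 18.3 to 23.6 in early Fra2, 20.2 to 22.3 in late control, 18.8 to 21.9 in late Fra2 and 18.5 to 22.2 in inhibitor libraries. The epithelial list (4 of 6 with a start peak) ran over 13.8 to 16.1, 10.6 to 13.4, 11 to 12.5, 10.4 to 13 and 9.54 to 11.7 CPM in the same order, and the neural progenitor and neural crest list (4 of 7) over 18.9 to 20.2, 16.4 to 19.6, 17.5 to 21.9, 16.2 to 19.8 and 14.6 to 18.6 CPM. Fibroblast markers summed to 161 to 216, 158 to 187, 174 to 196, 143 to 161 and 153 to 164 CPM. The macrophage list (3 of 5) ran over 24.9 to 30.3, 27.7 to 32.7, 30.8 to 33.7, 32.3 to 34.4 and 26.6 to 29.5 CPM. The endothelial list (3 of 5) ran over 13.2 to 16, 14.3 to 16.4, 11.7 to 13.4, 13.1 to 15.1 and 11.6 to 13.1 CPM. Early controls had the highest epithelial sums but not the highest macrophage or endothelial ones. Their germ cell sums lay above those of late control, late Fra2 and inhibitor libraries and overlapped those of early Fra2. The part of such differences in the member results was not tested.

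By the Pearson correlation of log2 CPM sums over the 15 libraries, genes most like each member among 17082 compared were Hcn3 and Sox30 for Pou5f1 (r = 0.92 and 0.91), Ica1 and Fcgr2b for Sox2 (0.94 and 0.92), Pot1a and 4930558C23Rik for Klf4 (0.93 and 0.92) and Slc1a5 for Myc (0.94). They were Tcea1 and Arhgap5 for Nanog (0.9 and 0.88), Rnf43 and Ccdc182 for Esrrb (0.97 and 0.93), Cmtm4 and Cyp2b10 for Sall4 (0.8 and 0.78), Gga2 for Lin28a (0.88) and Tas1r1 and Tmem267 for Fgf4 (0.9 and 0.87). Among the members themselves the highest values were 0.75 between Nanog and Myc and 0.69 between Pou5f1 and Fgf4, and the lowest −0.74 between Nanog and Sall4. All sums come from the same libraries, which differ in depth and group and include early control 3, and the correlations are a description only.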

How the data were processed

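Read counts at consensus peaks were deposited by the authors as raw counts, with 1 peak list per library from MACS2 on mm10, per the submitters' processing notes. In those deposited lists the fold enrichment (a ratio) and the −log10 q-value of each peak are the authors' values. Only presence was used here (overlap of at least 1 base). Presence includes weak entries: near the members, outside consensus peaks, the −log10 q-value went down to 0.33 in early control 3. The lists held 114359 entries in early control 3 and up to 305369 in inhibitor 3. The aligner's name, its settings and the consensus method were not given in the sources used here.

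Peaks were assigned by their centre to the nearest of 21631 protein-coding genes of the RefSeq table for GRCm38.p6, and 88.7% received a gene. Counts of all 15 libraries were fitted together in edgeR 4.0.16 (R 4.3.3, limma 3.58.1) with TMM scaling, filterByExpr (18 peaks removed) and the quasi-likelihood test, with Benjamini-Hochberg adjustment over all peaks and a threshold of 0.05. SE is the log2 difference divided by the square root of the test's F. The text names, for each gene, peaks within 1 kb of a start, the brightest peak and called peaks (up to 3 per comparison with a treatment, the largest otherwise). From the wider list it names up to 2 called peaks per direction, and for likeness up to 2 genes per member; some genes these rules name are not reported here. The members and lists were chosen with earlier results of these data known. Alternatives were DESeq2 1.42.0, TMM factors from gene-start peaks, cyclic loess, no filter, the compared groups only, a replicate block, leaving out each library, and peaks within 10 kb. The fit was tried on simulated counts for the early Fra2 comparison (206349 peaks). It recovered 8% of 50 peaks changed 1.5-fold, 54% at 2-fold, 82% at 3-fold and 94% at 4-fold, and called 6 unchanged peaks. Only these few peaks were changed, while 15% of peaks were called in the data, so the adjusted threshold was stricter in the simulation. No library was made to stand apart as early control 3 does. The recovered shares need not hold for the data. Floors cover counting error only.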

Additional observations from a re-analysis of the deposited data

How the results depend on the processing

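No called difference of a named peak or sum changed sign, but differences that did not pass could (the Sox2 start peak in early Fra2 cells, −0.42 to 0.06). The 133 differences of named peaks and sums, called or not, were each set against the alternative fits. Counted once per difference and fit, a call was lost 104 times and gained 15 times. The side of the threshold was kept 1415 times, which includes differences called in neither fit. DESeq2 gave no adjusted p for 8, and the cause of the changes was not tested. With the compared groups only, member peaks called numbered 5 in early Fra2 cells, 15 in late Fra2 cells, 0 after the inhibitor and 0 over time. Member sums called numbered 0, 2 and 0 in the treatment comparisons and 1 (Esrrb) between early Fra2 and inhibitor cells. The early Fra2 calls lost in that fit were those of Myc, Lin28a, Fgf4 and both Esrrb peaks with a difference of 0.56. Cyclic loess gave 16 peaks in early Fra2 cells and 3 after the inhibitor. Gene-start scaling gave 14 in late Fra2 cells, 5 after the inhibitor and 4 over time. DESeq2 called 0 peaks after the inhibitor. It gave no adjusted p there for either Pou5f1 peak, the Fgf4 start peak or the Fgf4 peak called in edgeR. The 66 peaks within 10 kb of a member gene, whatever their nearest gene, gave 3 higher and 4 lower calls in early Fra2 cells. They gave 1 higher and 6 lower calls in late Fra2 cells and 0 over time. Leaving out 1 library gave 5 to 16 peaks in early Fra2 cells, 1 to 8 in late Fra2 cells, 0 to 6 after the inhibitor, 0 to 7 over time and 6 to 9 between early Fra2 and inhibitor cells, and 0 to 2, 0 to 1 and 0 to 1 sums in the early Fra2, late Fra2 and inhibitor comparisons. Over all peaks, 30935 calls in early Fra2 cells became 15004 with the compared groups only; 20603 in late Fra2 cells became 33257, or 38713 with gene-start scaling; 1843 after the inhibitor became 11, or 9861 with gene-start scaling and 5365 with cyclic loess; 6766 over time became 1133; and 193 for the interaction became 67, 366 in DESeq2, 432 with gene-start scaling and 592 with cyclic loess. Leaving out 1 library gave 19720 to 40321, 8832 to 19252, 220 to 7565, 2299 to 8685 and 22 to 579 in that order, and 16776 to 24445 between early Fra2 and inhibitor cells. Same-numbered replicates shared only a number: deviations correlated at −0.01 to 0.27 in the early Fra2 comparison, −0.09 to −0.01 in the late one and −0.07 to −0.01 for the inhibitor, and 2, 0 and 0 of 3 pairs correlated best with their own number. A replicate block gave 11, 7 and 1 member peaks and 1, 1 and 1 sums in these comparisons, 0 peaks for the interaction, 2 over time and 13 between early Fra2 and inhibitor cells. Depth limits the fainter sites: at 1.79 CPM, the level of a Pou5f1 peak, the floor of 3 counts was 0.117 to 0.42 CPM.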
